A study of Mus musculus with 12 samples.

Results

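Transcripts of 28 genes of cholesterol and fatty acid synthesis were followed in microdissected mouse neocortex at embryonic day 16, in mice with disrupted genes of the nuclear factor I (NFI) family of transcription factors. The members were taken by gene symbol from the 23352 gene rows of the authors' table, and all 28 had a row. By titles and strain the labels give an Nfia line, Nfia{tm1Rmg}(C57BL/6), and an Nfib line, Nfib{tm1Rmg}(C57BL/6). Each line had 2 libraries from wild types and 4 libraries from embryos labelled homozygous knockout, 12 libraries in all. The growth protocol names the Nfia allele for both lines, so the lines rest on titles and strain. The question is what the loss of NFIA, or of NFIB, does to transcripts of the neocortex. The labels do not say whether each library came from a separate embryo or litter.

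Cholesterol is built from acetyl-CoA. The mevalonate branch makes farnesyl pyrophosphate, and the sterol branch joins farnesyl units into squalene, closes the rings and trims lanosterol to cholesterol. SREBP2, the product of Srebf2, turns on these genes when membrane sterol is low, held back by INSIG1 and escorted by SCAP, while SREBP1 from Srebf1 acts more on fatty acid synthesis. The blood-brain barrier keeps out circulating cholesterol, so the brain makes its own, in the embryo first in progenitors and neurons and later mostly in glia for myelin.

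Each value is an average over a group that the authors computed in FPKM (fragments relative to transcript length and library size), which is per length and so can be compared between genes. No value per library was used, the read depth is unknown and no spread between libraries can be given. For scale, the error of a log2 fold implied by the deposited p-values had a median of 0.13 for Nfia and 0.15 for Nfib among genes at 20 to 100 FPKM. The neocortex markers Emx1, Emx2, Pax6, Eomes, Tbr1, Neurod6 and Bcl11b all had values in the 4 groups, summing to between 679 and 911 FPKM. Nfib transcript stood at 134 FPKM in its wild types and 9.12 in the Nfib knockouts. Nfia stood at 33.7 FPKM in its wild types and 28.2 in the group labelled Nfia knockout, a value for the whole gene that does not check the label, so that group is called labelled Nfia knockout below. The groups also differed in sex-linked transcripts, Xist being at 161 FPKM in the Nfia-line wild types, 0.207 in the Nfib-line wild types, 77.0 in the labelled Nfia knockouts and 86.0 in the Nfib knockouts. The Y-linked Ddx3y was at 0.0330, 11.5, 7.29 and 5.89 FPKM in the same order. By these transcripts the wild types of the lines differed in sex, while both knockout groups had both transcripts.

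The Nfib knockouts had lower values than their own wild types across the cholesterol pathway, by small amounts. The authors' deposited table gave a log2 fold below 0 for all 16 members of the mevalonate and sterol branches that were tested, against 50.9% of all genes tested, with a median of -0.25 against -0.0049. Of these 16, Mvd and Fdps passed the authors' q of 0.05 and fell, and 14 did not pass. Over all members, 2 of 27 tested passed, against 5.39% of all 13729 genes tested in either direction and 3.26% in the lower direction. At an unadjusted p under 0.05 there were 4 members, Mvd, Fdps, Cyp51 and Nsdhl, against 13.4% of all genes tested. The share of called members was thus near that of all genes, and the common direction was given no test. In bulk tissue, fewer cells of a type and less RNA per cell cannot be told apart.

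In the labelled Nfia knockouts none of the 27 members tested passed, by the authors' deposited q-values, against 3.79% of all 13736 genes tested. At an unadjusted p under 0.05 there were 2, Acaca and Fasn, against 10.1% of all genes tested. The mevalonate and sterol branches had 8 of 16 folds below 0 there, against 50.9% of all genes tested, and a median log2 fold of 0.0060.

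**Figure D1:**
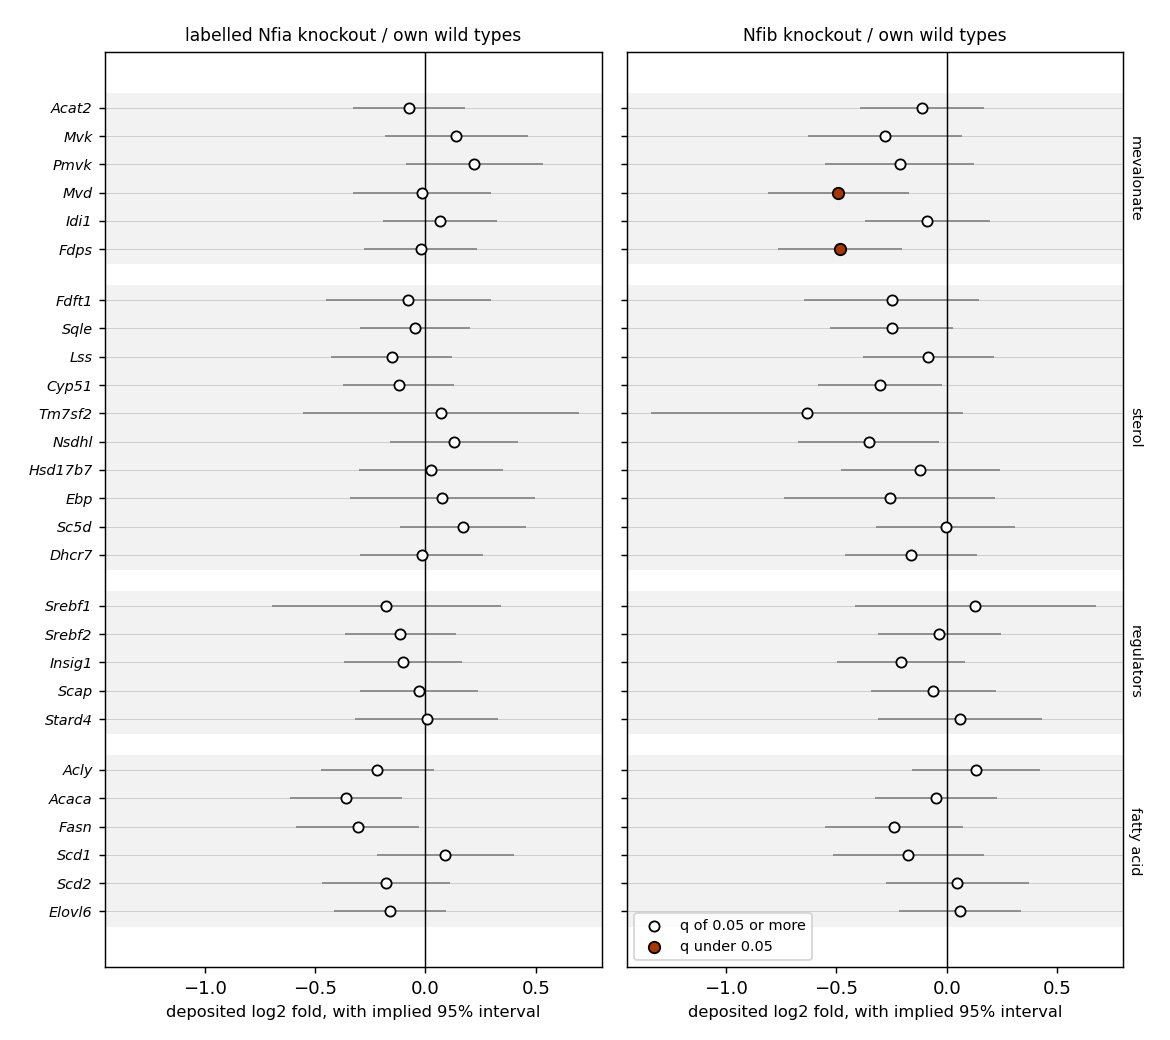
Deposited log2 folds of knockout over own wild types for the 27 tested members, by branch, with the labelled Nfia knockouts on the left and the Nfib knockouts on the right. Bars are 95% intervals implied by the deposited p-values and filled points have q under 0.05. The folds of the 16 mevalonate and sterol members lie below 0 on the right, with Mvd and Fdps filled, and on both sides of 0 on the left.

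In the mevalonate branch, Fdps, which encodes farnesyl pyrophosphate synthase, was the most abundant member. It stood at 109.8 FPKM in the Nfia-line wild types, 109 in the labelled Nfia knockouts, 142 in the Nfib-line wild types and 99.95 in the Nfib knockouts. The Nfib-line wild types were thus the group apart, and the Nfib knockouts were the lowest of the other groups. The authors' deposited table gives a log2 fold of -0.48 in the Nfib knockouts (q = 0.0181), with an implied error of 0.14. In the labelled Nfia knockouts the log2 fold of Fdps per the authors' deposited table was -0.021 (q = 0.999). The exons of Fdps overlap those of Gm43738 on the same strand, so their reads may not be separable.

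Mvd encodes mevalonate diphosphate decarboxylase, which makes isopentenyl diphosphate, the building block of isoprenoids. It stood at 19.1 FPKM in the Nfia-line wild types, 19.1 in the labelled Nfia knockouts, 23.98 in the Nfib-line wild types and 16.8 in the Nfib knockouts. Here too the Nfib knockouts lay below both groups of the other line, which were level with each other. The authors' deposited table gives a log2 fold of -0.49 in the Nfib knockouts (q = 0.0476, close to the threshold), with an implied error of 0.16, and of -0.014 (q = 0.999) in the labelled Nfia knockouts.

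The other tested members of the branch were Acat2, a cytosolic acetoacetyl-CoA thiolase, the kinases Mvk and Pmvk, and the isomerase Idi1. Mvk, the lowest tested member of the branch, stood at 13.9 FPKM in the Nfia-line wild types, 15.5 in the labelled Nfia knockouts, 17.1 in the Nfib-line wild types and 13.9 in the Nfib knockouts. Pmvk stood at 23.7, 27.9, 29.5 and 25.0 FPKM in the same order. In both kinases the Nfib-line wild types were highest and the Nfib knockouts were level with, or slightly above, the Nfia-line wild types. Log2 folds of these 4 genes per the authors' deposited table ran from -0.28 for Mvk to -0.087 for Idi1 in the Nfib knockouts, and from -0.072 for Acat2 to 0.22 for Pmvk in the labelled Nfia knockouts. Hmgcs1, the HMG-CoA synthase gene, is listed at 0 in all 4 groups. A listed 0 can be a failed estimate, since the abundant Eef1a1 is listed at 0 in 1 group and Tuba1a in 2, so nothing is read from it.

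In the sterol branch, the most abundant member was Fdft1, the squalene synthase gene, at 72.5 FPKM in the Nfia-line wild types, 69.3 in the labelled Nfia knockouts, 78.5 in the Nfib-line wild types and 65.0 in the Nfib knockouts. Sqle, squalene epoxidase, stood at 69.0, 67.4, 74.999 and 62.1 FPKM in that order. Both genes were highest in the Nfib-line wild types and lowest in the Nfib knockouts. The log2 fold in the Nfib knockouts per the authors' deposited table was -0.25 for each, with q of 0.771 for Fdft1 and 0.476 for Sqle. The exons of Fdft1 overlap those of Ctsb on the opposite strand.

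Cyp51, the lanosterol demethylase gene, stood at 48.4 FPKM in the Nfia-line wild types, 44.9 in the labelled Nfia knockouts, 50.7 in the Nfib-line wild types and 40.5 in the Nfib knockouts. The authors' deposited table gives a log2 fold of -0.30 in the Nfib knockouts (q = 0.294). With the Nfia-line wild types as reference the log2 ratio was -0.26, so it moved little. The exons of Cyp51 overlap those of Akap9 on the opposite strand. Nsdhl, a sterol dehydrogenase that removes methyl groups, stood at 18.9, 20.8, 23.5 and 18.1 FPKM in the same order of groups. Its log2 fold in the Nfib knockouts per the authors' deposited table was -0.35 (q = 0.275), and -0.059 with the Nfia-line wild types as reference. Cyp51 and Nsdhl are named here after their values were seen. Nsdhl and Ebp are the 2 members on the X chromosome, and Xist differed between the groups as given above.

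Tm7sf2, which encodes a sterol C14-reductase, had the lowest fold of all members. It stood at 8.34 FPKM in the Nfia-line wild types, 8.84 in the labelled Nfia knockouts, 11.2 in the Nfib-line wild types and 7.11 in the Nfib knockouts. The log2 fold of -0.63 per the authors' deposited table did not pass (q = 0.478), with an implied 95% interval from -1.34 to 0.07, and it was -0.23 with the Nfia-line wild types as reference. Its exons overlap those of Vps51 on the same strand, so their reads may not be separable.

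The remaining members of the sterol branch did not pass either. Ebp, a sterol isomerase and the lowest of the branch, stood at 4.13 FPKM in the Nfia-line wild types, 4.39 in the labelled Nfia knockouts, 4.55 in the Nfib-line wild types and 3.75 in the Nfib knockouts, with a log2 fold of -0.26 in the Nfib knockouts per the authors' deposited table (q = 0.850). Lss, the cyclase that makes lanosterol, Hsd17b7, a sterol ketone reductase, Dhcr7, the last enzyme of one route to cholesterol, and Sc5d, a desaturase, had log2 folds from -0.16 for Dhcr7 to -0.0050 for Sc5d per the authors' deposited table. In the labelled Nfia knockouts the 10 sterol members ran from -0.15 for Lss to 0.17 for Sc5d per the authors' deposited table, 5 below 0.

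**Figure D2:**
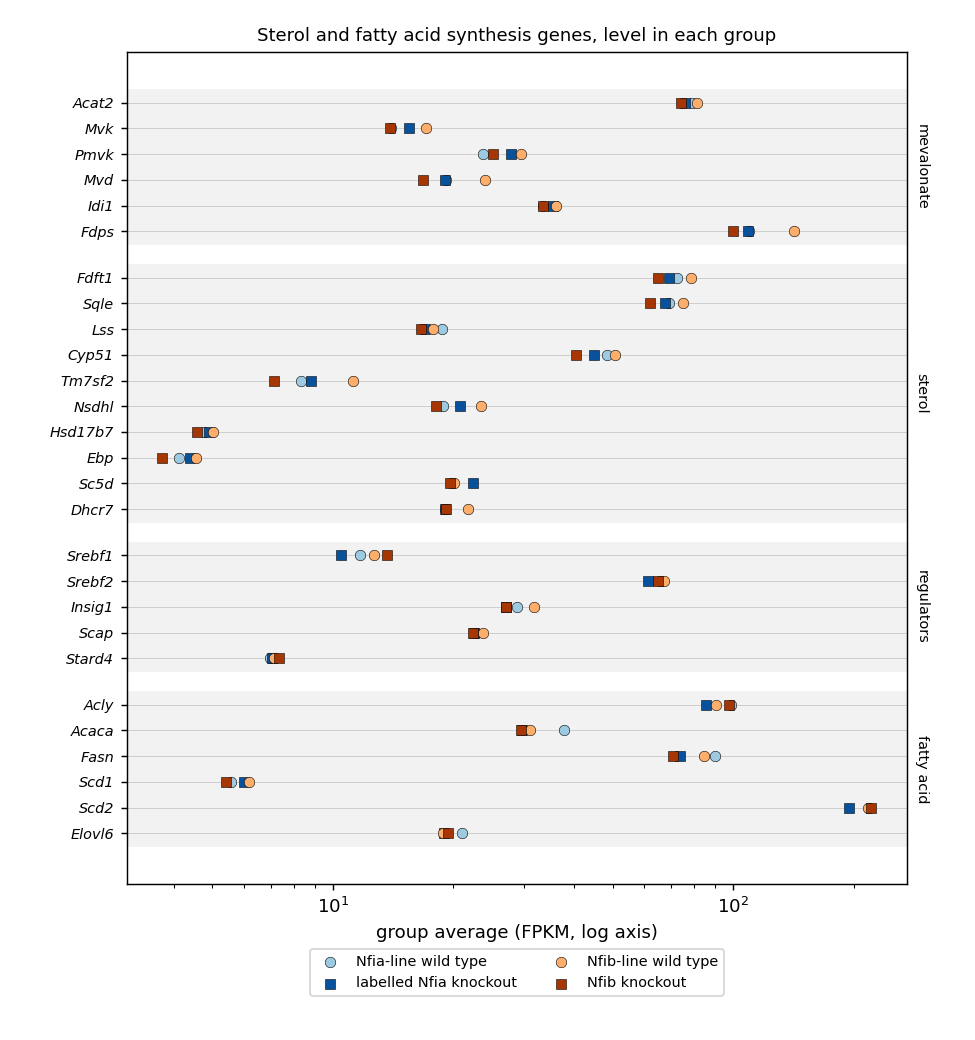
Group averages in FPKM, on a log axis, for the 27 members with values, by branch. Circles are wild types and squares knockouts. Scd2 lies highest, at 195 to 221 FPKM, and in the mevalonate and sterol branches the Nfib-line wild types lie mostly to the right and the Nfib knockouts mostly to the left.

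The order of the 4 groups showed how much of this rested on the wild types. Among the 16 tested mevalonate and sterol members, the Nfib-line wild types were the highest group for 14, against 33.3% of all genes tested. The Nfib knockouts were the lowest group for 14, against 25.9%, and both held for 12, against 13.3%. All 16 had a fold below 0 in the Nfib line, so these orders follow in part from that direction. Of all genes tested 50.9% had such a fold, so their shares are not a like-for-like scale. The Nfib-line wild types stood above the Nfia-line wild types in 15 of the 16, Lss being the exception, with a median log2 ratio of 0.13 against 0.028 over all genes tested. Against the Nfia-line wild types in place of their own, 14 of the 16 were lower in the Nfib knockouts, Pmvk and Dhcr7 being the exceptions, and their median log2 ratio was -0.11. The log2 ratio against those wild types was -0.14 for Fdps and -0.19 for Mvd. The labelled Nfia knockouts, in turn, lay below the Nfib-line wild types in 15 of the 16, with a median log2 ratio of -0.15. Against their own wild types 8 of the 16 deposited folds were below 0. These ratios use group FPKM with 0.1 added and have no test. Line, wild-type group and the difference in sex between the wild types cannot be told apart.

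**Figure D3:**
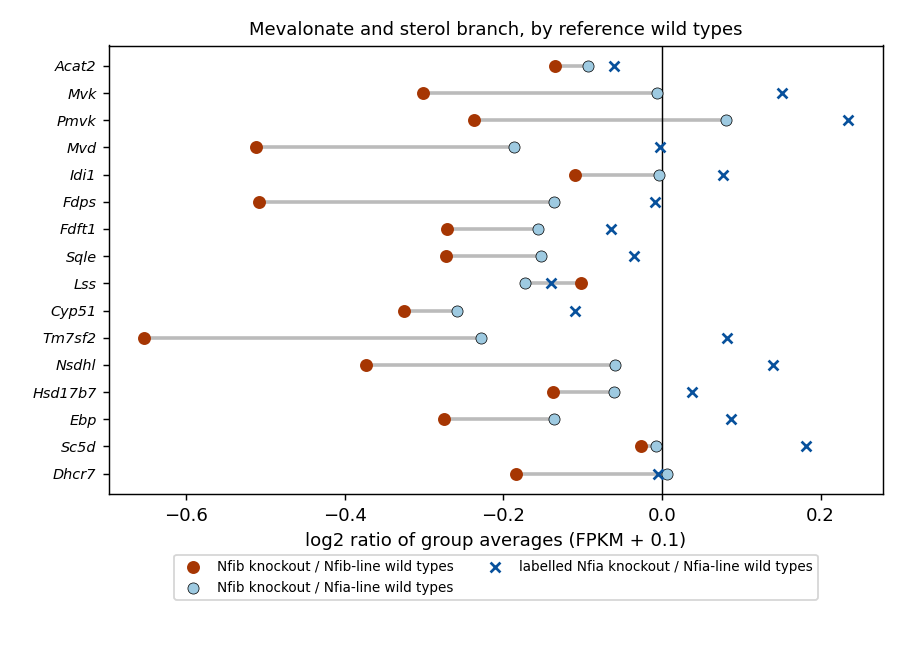
Log2 ratios of group FPKM, with 0.1 added, for the 16 tested members of the mevalonate and sterol branches. Filled brown points set the Nfib knockouts against their own wild types, light points set them against the Nfia-line wild types, and crosses set the labelled Nfia knockouts against their own wild types. For Fdps the ratio goes from -0.51 against its own to -0.14 against the other wild types.

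**Figure D4:**
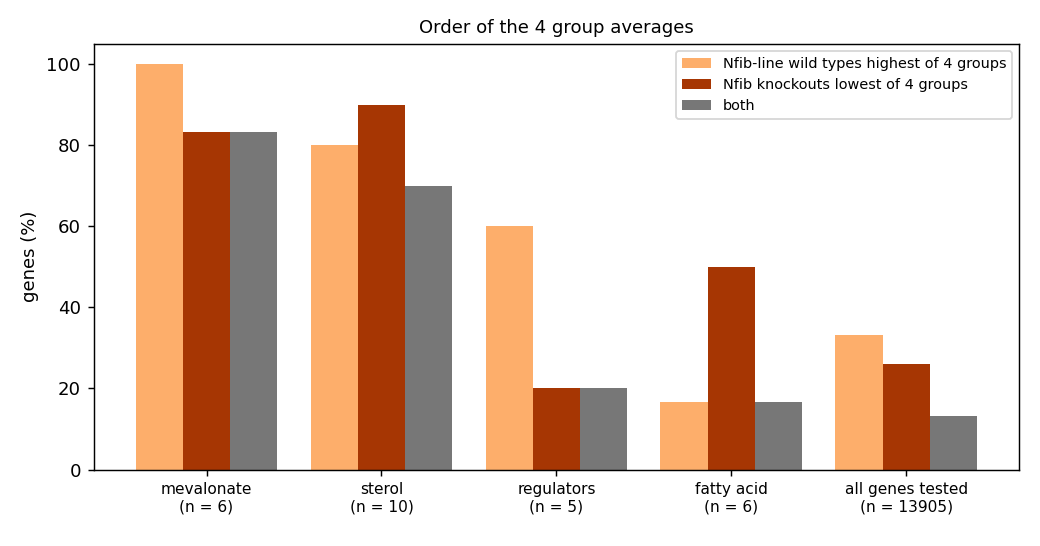
Percent of genes in each branch, and of all genes tested, for which the Nfib-line wild types were the highest of the 4 group averages, the Nfib knockouts the lowest, or both. Both held for 83.3% of 6 mevalonate members, 70.0% of 10 sterol members and 13.3% of all genes tested. All these mevalonate and sterol members had a fold below 0 in the Nfib line, against 50.9% of all genes tested, and the orders follow in part from that.

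The folds of the lines were then set against each other. No member differed between the lines in an approximate test that sets the difference of the folds against the errors drawn from the p-values and adjusts over 13554 genes, of which 3.76% differed. At an unadjusted p under 0.05 there were 3 of 27 members, Fdps, Nsdhl and Mvd, against 12.4% of all genes. The fold of Fdps in the Nfib line minus that in the Nfia line was -0.46, with a combined error of 0.20. A difference that misses the threshold is not shown to be absent. In the simulation given under the processing, drawn over genes of all levels, 7 of 50 differences of 0.5 were called.

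The promoters of this branch were looked at because its members shared a direction. RefSeq windows of 300 bases (250 before to 50 after the start, build GRCm38.p6) were found for 22 of the 28 members, 28 windows in all. None was found for the called member Fdps, nor for Fdft1, Sqle, Stard4, Scd1 and Scd2. A CCAAT box, the letters CCAAT on either strand, bound by NF-Y and known as a partner site of SREBP, was in the windows of 18 of these 22 genes, among them 13 of the 14 mevalonate and sterol genes with a window. By windows this was 19 of 28, against 37.4% of all 32851 windows. The sterol regulatory element TCACNCCAC was in 1 member's window, that of Hmgcs1, against 1.24% of all windows, and the E-box CACGTG, which SREBP can also bind, in 6 of 28 member windows against 7.15%. The full NFI site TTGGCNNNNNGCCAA was in no member's window, against 0.0365% of all windows. Its half-site TTGGC was in 21 of 28, against 46.7%, but 19 of the 34 half-sites in member windows overlap a CCAAT box, since GCCAAT holds both. A match is a string of letters and does not show binding.

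The windows below are those of the called member Mvd, of Cyp51 and Nsdhl, which had an unadjusted p under 0.05, and of Hmgcs1, which has the sterol regulatory element. They run 5′ to 3′ on the gene's strand, with CCAAT boxes (CCAAT, or ATTGG on the other strand) and the sterol regulatory element in capitals. Mvd lies at chr8:122443373-122443672 on the minus strand, Cyp51 at chr5:4104648-4104947 on the minus strand, Nsdhl at chrX:72918271-72918570 on the plus strand and Hmgcs1 at chr13:119690101-119690400 on the plus strand.

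Mvd: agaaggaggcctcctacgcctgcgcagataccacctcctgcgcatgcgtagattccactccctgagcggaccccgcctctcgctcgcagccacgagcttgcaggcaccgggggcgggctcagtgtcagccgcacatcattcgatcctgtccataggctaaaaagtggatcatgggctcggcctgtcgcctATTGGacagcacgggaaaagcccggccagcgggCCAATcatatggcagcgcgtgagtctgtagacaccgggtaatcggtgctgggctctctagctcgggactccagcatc

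Cyp51: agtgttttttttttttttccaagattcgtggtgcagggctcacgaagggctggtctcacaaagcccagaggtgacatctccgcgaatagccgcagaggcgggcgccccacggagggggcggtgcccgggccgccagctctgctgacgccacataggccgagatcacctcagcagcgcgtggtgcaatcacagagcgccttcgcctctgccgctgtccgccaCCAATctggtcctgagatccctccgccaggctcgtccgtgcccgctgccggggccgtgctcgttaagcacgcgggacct

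Nsdhl: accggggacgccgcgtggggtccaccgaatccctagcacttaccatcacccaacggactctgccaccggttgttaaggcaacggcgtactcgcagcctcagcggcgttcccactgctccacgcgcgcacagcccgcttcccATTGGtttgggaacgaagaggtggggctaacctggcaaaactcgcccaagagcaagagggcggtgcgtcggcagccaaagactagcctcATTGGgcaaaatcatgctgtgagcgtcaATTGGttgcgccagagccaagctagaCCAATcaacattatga

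Hmgcs1: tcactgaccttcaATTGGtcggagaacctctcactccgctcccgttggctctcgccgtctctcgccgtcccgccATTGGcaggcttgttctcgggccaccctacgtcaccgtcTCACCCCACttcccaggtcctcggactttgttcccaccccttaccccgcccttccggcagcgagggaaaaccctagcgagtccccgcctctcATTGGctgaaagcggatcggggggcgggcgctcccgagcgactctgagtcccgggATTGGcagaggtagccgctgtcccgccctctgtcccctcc

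The Mvd window holds 2 CCAAT boxes, beginning 60 and 27 bases before the start, Cyp51 holds 1, beginning 29 bases before it, and Nsdhl and Hmgcs1 hold 4 each. In Hmgcs1 the sterol regulatory element TCACCCCAC begins 137 bases before the start.

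The regulators of the pathway had folds on both sides of 0 in the Nfib knockouts, 3 of 5 below it. Srebf2, the most abundant of them, stood at 65.6 FPKM in the Nfia-line wild types, 61.1 in the labelled Nfia knockouts, 67.3 in the Nfib-line wild types and 64.8 in the Nfib knockouts. Its groups lay within a factor of 1.10 of each other, and its log2 fold in the Nfib knockouts per the authors' deposited table was -0.034 (q = 0.998, implied 95% interval from -0.31 to 0.24). Srebf1 stood at 11.7, 10.5, 12.7 and 13.7 FPKM in the same order, highest in the Nfib knockouts. Its log2 fold per the authors' deposited table was 0.13 in the Nfib knockouts (q = 0.994) and -0.18 in the labelled Nfia knockouts (q = 0.999). The exons of Srebf1 overlap those of Rai1 on the opposite strand.

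Insig1, itself a target of SREBP, stood at 28.8 FPKM in the Nfia-line wild types, 27.03 in the labelled Nfia knockouts, 31.8 in the Nfib-line wild types and 27.1 in the Nfib knockouts. It had the lowest fold of the regulators in the Nfib knockouts, -0.21 on the log2 scale per the authors' deposited table (q = 0.674). Scap ranged from 22.4 to 23.7 FPKM over the 4 groups. Stard4, which encodes a sterol carrier and was the lowest of these genes, stood at 6.97, 7.06, 7.13 and 7.34 FPKM, in the order used above. Over the 5 genes the median log2 fold was -0.034 in the Nfib knockouts and -0.10 in the labelled Nfia knockouts, and none passed per the authors' deposited table.

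Among the fatty acid synthesis genes, 5 of 6 in the labelled Nfia knockouts had a log2 fold below 0, with a median of -0.20 against -0.0033 over all genes tested, and in the Nfib knockouts 3 of 6, with a median of -0.00020. None of the 6 passed in either line. Acaca, acetyl-CoA carboxylase, which makes malonyl-CoA, stood at 37.8 FPKM in the Nfia-line wild types, 29.7 in the labelled Nfia knockouts, 31.0 in the Nfib-line wild types and 29.6 in the Nfib knockouts. The Nfia-line wild types were the group apart. The authors' deposited table gives a log2 fold of -0.36 in the labelled Nfia knockouts (p = 0.00565, q = 0.112), which came to -0.063 when set against the Nfib-line wild types.

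Fasn, fatty acid synthase, stood at 90.2 FPKM in the Nfia-line wild types, 73.5 in the labelled Nfia knockouts, 84.5 in the Nfib-line wild types and 70.6 in the Nfib knockouts. Both knockout averages lay below both wild-type averages. Its log2 fold per the authors' deposited table was -0.31 in the labelled Nfia knockouts (q = 0.375) and -0.24 in the Nfib knockouts (q = 0.619). Acaca and Fasn are given in full after their values were seen. Acly, which makes cytosolic acetyl-CoA from citrate, stood at 98.8, 85.7, 90.6 and 97.9 FPKM in the same order, and Elovl6, an elongase, between 18.9 and 21.0 FPKM.

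The desaturases Scd2 and Scd1 lay far apart in level. Scd2, the form known to prevail in mouse brain, stood at 219 FPKM in the Nfia-line wild types, 195 in the labelled Nfia knockouts, 217 in the Nfib-line wild types and 221 in the Nfib knockouts, the highest of all members. Scd1, the form known from liver and fat, stood at 5.58, 5.99, 6.19 and 5.39 FPKM. These are near copies of each other, so the split of reads between them is uncertain. Log2 folds in the labelled Nfia and the Nfib knockouts per the authors' deposited table were -0.18 and 0.049 for Scd2 and 0.090 and -0.17 for Scd1, none past the threshold.

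Related genes outside the list were counted in 5 groups. Of 12 other enzymes of sterol and isoprenoid synthesis, none passed in either line by the authors' deposited q-values, with 1 at an unadjusted p under 0.05 in the Nfib line and 0 in the Nfia line. Their median log2 fold was -0.070 in the Nfib knockouts. Of 15 other regulators of the SREBP pathway none passed either, with 1 at an unadjusted p under 0.05 in each line, and in the Nfib knockouts 5 had a fold below 0. The mevalonate and sterol members had 16 of 16, and no test was made of that difference.

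Of 21 tested genes of sterol export, storage and transport, 1 fell in the Nfib knockouts, where 3.26% of all genes tested fell. In the labelled Nfia knockouts 1 rose, where 3.79% of all genes tested passed in either direction. The counts are thus near the shares of all genes. Apoe, the main lipid carrier of the brain, made by astrocytes, stood at 19.5 FPKM in the Nfia-line wild types, 16.1 in the labelled Nfia knockouts, 31.6 in the Nfib-line wild types and 16.5 in the Nfib knockouts. As with Fdps, the Nfib-line wild types stood apart. Its log2 fold was -0.91 in the Nfib knockouts per the authors' deposited table (q = 0.00207), and -0.24 when set against the Nfia-line wild types. Lpl, lipoprotein lipase, which frees fatty acids from lipoproteins, stood at 5.46, 8.74, 7.31 and 9.71 FPKM in the same order. It rose by 0.67 on the log2 scale in the labelled Nfia knockouts per the authors' deposited table (q = 0.00505), or 0.26 with the Nfib-line wild types as reference, and had a log2 fold of 0.43 in the Nfib knockouts (q = 0.150).

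Of 29 tested genes of fatty acid synthesis and desaturation outside the members, 1 fell in the Nfib knockouts by the authors' deposited q-values. This is near the 3.26% of all genes tested, and 6 had an unadjusted p under 0.05, against 13.4%. None passed in the labelled Nfia knockouts, with 4 at an unadjusted p under 0.05, against 10.1% of all genes tested. Thrsp, known in liver as a lipogenic target of thyroid hormone, stood at 0.762 FPKM in the Nfia-line wild types, 0.389 in the labelled Nfia knockouts, 2.70 in the Nfib-line wild types and 0.539 in the Nfib knockouts. Its log2 fold was -2.32 in the Nfib knockouts per the authors' deposited table (q = 0.00207), and -0.43 when set against the Nfia-line wild types. Of the fatty acid breakdown genes none passed among 19 tested in the Nfia line (2 at an unadjusted p under 0.05) or 18 in the Nfib line (1 at that p).

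Markers of other cells, fixed as 9 lists, passed the authors' q of 0.05 in the same Nfib comparison. Of all 13729 genes tested there, 448 (3.26%) fell. Of 6 oligodendrocyte lineage markers 3 fell and none rose, and their summed level was 23.7 FPKM in the Nfia-line wild types, 25.0 in the labelled Nfia knockouts, 32.4 in the Nfib-line wild types and 17.9 in the Nfib knockouts. The Nfib-line wild types were highest and the Nfib knockouts lowest, as for the summed mevalonate and sterol branches at 563, 562, 638 and 520 FPKM. Of 6 ganglionic eminence markers 4 fell, with sums of 86.8, 123.5, 119 and 79.5 FPKM in the same order. All 5 markers of meninges and fibroblasts fell, with sums of 2.77, 2.33, 9.90 and 3.08 FPKM. Of 6 astrocyte markers 1 fell, with sums of 509, 602, 689 and 683 FPKM.

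Other lists went up in the Nfib knockouts, where 292 of all 13729 genes tested rose. Of 5 tested choroid plexus markers 4 rose, and the sum of all 6 went from 1.65 to 98.5 FPKM, 94.8 of it from Ttr, with Folr1 at 0 in the Nfib-line wild types. Of 7 neocortex markers 3 rose and of 6 cell cycle markers 2 rose. Of 5 neuron markers none passed by the authors' deposited q-values (1 at an unadjusted p under 0.05), and of 4 endothelial markers 1 fell. In the order of groups used above, the neuron sums were 767, 841, 838 and 722 FPKM, also lowest in the Nfib knockouts. The endothelial sums were 37.2, 37.1, 44.4 and 36.7 FPKM. They had the same highest and lowest groups as the oligodendrocyte lineage sums, with 1 of 4 folds below 0 in the Nfib line. In the labelled Nfia knockouts 3 of 6 ganglionic eminence markers rose, 1 of 4 tested astrocyte markers rose, 1 of 7 neocortex markers fell and Ttr rose. Of all 13736 genes tested in that line, 369 rose and 151 fell. The part of these cell types in the folds of the members was not tested.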

How the data were processed

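RNA was isolated with Trizol and libraries were made with the Illumina TruSeq RNA kit, per the labels' protocols. CASAVA 1.8.2, TopHat2 2.0.10, Cufflinks, Cuffdiff 2.1.1 and build mm9 are named in the submitters' processing notes. Settings for strand and counting were not given in the sources used here. The exons of 10 members overlap another gene in GENCODE M21, and without strand their reads may not be separable.

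The 1 table holds FPKM as weighted averages per subgroup, made by the authors, and log2 folds, p-values and q-values for knockout over wild type in each line, all as deposited, per the file headers, by the authors. The q-values lie within 7.32e-05 (Nfia) and 5.22e-07 (Nfib) of Benjamini-Hochberg values over rows with p under 1, which count as tested. The planned limma test needed values per library, so the authors' q at 0.05 was used. The p-values measure a spread between libraries that may be technical.

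Errors were taken as the fold divided by the normal deviate of its p-value. For the difference between lines each was at least the running median of 501 genes ranked next to it by FPKM. On simulated folds for 13554 genes the calls were 0 of 50 genes made to differ by 0.25 on the log2 scale, 7 of 50 at 0.5, 20 of 50 at 1 and 47 of 50 at 2, with 4 false calls among 13354. The simulation takes the implied errors as true. The genes made to differ were drawn at random over all levels and were fewer than the 510 called in the data. The calls are thus not rates for the members. The work used Python 3.11.15 with pandas 2.3.3, numpy 2.4.6, matplotlib 3.10.9 and scipy 1.17.1.

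Members and lists were chosen with earlier results of these data known. Some neocortex markers are not reported here and enter no count or sum. Of 105 related genes all matched, some of them by RefSeq synonyms. Given in full were members past q 0.05, those with a log2 fold of 0.5 or more in size, and the highest and lowest of each branch. Alternatives were other thresholds, filters, pseudocounts and wild types.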

Additional observations from a re-analysis of the deposited data

How the results depend on the processing

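Past a q of 0.05 in the Nfib line were 2 members, a count that was also 2 at a q of 0.10 and among members at 1 FPKM or more, and came to 0 at a q of 0.01 and 0 where a log2 fold of at least 0.5 was also asked. No member passed in the Nfia line, and none differed between the lines, under any alternative run. The median log2 fold of all members in the Nfib line, -0.16, was -0.060 against the wild types of the other line and -0.12 against the mean of both. In the Nfia line, -0.027 came to -0.14 and -0.10. Pseudocounts of 0.1 and 1, the 1 FPKM filter and subtracting the median of all genes moved neither median by more than 0.022. The count of mevalonate and sterol members below their wild types in the Nfib line was chosen after seeing the data. It was 16 of 16 against the mean of both sets of wild types and 14 of 16 against those of the other line. Against their own it was 14 of 14 without the X chromosome, which leaves a difference in sex in place for the other genes. It was 10 of 10 without members whose exons overlap another gene, a fall that comes from counting fewer genes. Single folds were checked for Fdps, Mvd, Cyp51, Nsdhl and Tm7sf2 in the Nfib line and for Acaca and Fasn in the Nfia line. Of these, all but Cyp51 and Fasn moved beyond their implied error with the other line's wild types, and the cause was not tested. Members outside this check moved as well. Pmvk in the Nfib line went from -0.21 to 0.081, with an implied error of 0.17. No paired analysis was possible because the table holds group averages with no replicate numbers, and for the same reason no replicate could be left out. The depth is unknown.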
